A study of Mus musculus with 10 samples.

Results

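The 9 genes described here lie downstream of the circadian clock: the PAR bZIP transcription factors Dbp, Tef and Hlf, their competitor Nfil3, the repressors Bhlhe40, Bhlhe41 and Ciart, the nuclear receptor Rora and the deubiquitinase Usp2. They were taken from 56748 genes in the count files by their names, as known clock-controlled genes, and were chosen by their log2 fold changes and calls between training and sedentary hearts, which were known beforehand. For them, the differences between the groups and whether a gene was called are therefore a description of what the choice used, given without a p value and not as independent evidence. The RNA came from the entire heart with the atria left on, of male wild-type (WT) C57BL/6 mice. The training group, 5 mice, ran on a treadmill by force for 8 weeks at 15 m/min, 120 min per day on 5 days per week, and the sedentary group, 5 mice of the same age, did not train. Each heart gave 1 library, and no group carried a genetic change. According to the study, training took place by day and at the same hour each time, while the hour at which the hearts were taken is not given in the sources used here. For genes with a daily rhythm, an effect of training and a difference in the phase of the clock at collection cannot be told apart.

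The clock of a heart cell is a feedback loop. Bmal1 (basic helix-loop-helix ARNT like 1) pairs with Clock or Npas2 at E-boxes and drives the Per and Cry genes, whose proteins then repress that pair, while the receptors Nr1d1 and Nr1d2 repress Bmal1 through ROR elements and the Ror receptors activate it there. Dbp, Tef and Hlf are outputs of this loop and activate genes through D-boxes, the same sites at which Nfil3 (also called E4bp4) represses. Bhlhe40 and Bhlhe41 (Dec1 and Dec2) bind E-boxes and repress, Ciart (Chrono) represses the Bmal1 complex, and Usp2 removes ubiquitin from clock proteins among others.

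To show what the members share in sequence, the 250 bases before the start of the canonical transcript of each gene were searched on both strands of GRCm39 for the E-box CACGTG, the D-box TTATGTAA or TTACGTAA and the ROR element TAGGTCA or TGGGTCA. Of the 9 members, 4 held the E-box, against 6.26% of 21757 protein-coding genes. These were Tef, Bhlhe40, Usp2 and Ciart, the last with 3 copies. Dbp alone among the 9 held the ROR element, in 2 copies, against 5.26% of protein-coding genes. The D-box was in 0 of 9 members and in 0.933% of protein-coding genes. Among 16 genes of the core loop, the E-box was in 2 (Per1 and Cry1) and the D-box in 2 (Per2 and Per3). No match says only that these letters are not in the window searched. The stretches of 30 bases that hold the matches are printed on the strand of the gene with the element in capitals:
Dbp, chr7:45354267-45354296, plus strand: ttggcccgaagTGGGTCAcggtcccgcctc
Dbp, chr7:45354312-45354341, plus strand: ttggccaaataTAGGTCAgtgtcccgcctt
Tef, chr15:81695465-81695494, plus strand: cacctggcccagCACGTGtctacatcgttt
Bhlhe40, chr6:108636392-108636421, plus strand: ccgcgtccgggcCACGTGaagcgtcacgcc
Ciart, chr3:95789639-95789668, minus strand: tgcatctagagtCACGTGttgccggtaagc
Ciart, chr3:95789574-95789603, minus strand: ggaggCACGTGcagaaccgCACGTGtctgg
Usp2, chr9:43978148-43978177, plus strand: gtgctttttctcCACGTGgttctctgtata
Both stretches of Dbp lie in an exon of the neighbouring gene Car11, and the first of Ciart lies in an exon of a longer Ciart transcript. Those of Tef and Usp2 lie across from exons of genes on the other strand, and that of Bhlhe40 lies in an exon of Gm17055 on its own strand and across from an exon of 0610040F04Rik.

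Counts assigned to genes numbered 29461697 to 35945417 per training library and 35196993 to 39431030 per sedentary library. Levels are given as CPM, reads of a gene scaled to a common library size after TMM correction, and groups were compared by the edgeR quasi-likelihood test over 15454 genes with Benjamini-Hochberg adjustment and a false discovery rate (FDR) below 0.1. All 9 members passed the filter on low counts, and the lowest count of any member in any heart was 128 (Ciart). The test called 1084 genes (7.01%), 425 of them higher (2.75%) and 659 lower (4.26%) in training. With library totals alone as the scale, 1029 were higher and 339 lower. Of the 9 members, 3 were called higher (Tef, Bhlhe41 and Rora) and 0 lower, beside those backgrounds. Fold changes were above 1 for 7 members and below 1 for Nfil3 and Ciart, with a median log2 fold change of 0.23 over the 9, against 0.000259 over all genes tested. The 5 training and 5 sedentary hearts overlapped in every one of the 9 members. Of all genes tested, 782 (5.06%) did not overlap, so that 0 of 9 does not set the members apart.

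Dbp, a PAR bZIP factor with a strong daily rhythm in many tissues, lies at chr7:45354512-45359627 on the plus strand (ENSMUSG00000059824). Training hearts 1 to 5 had 85.1, 75.2, 65.7, 70.2 and 82.6 CPM, and sedentary hearts 1 to 5 had 33.4, 46.0, 35.7, 70.2 and 70.5 CPM. The 5 training hearts lay close together, whereas sedentary hearts 4 and 5 lay within the range of the training hearts and the other 3 sedentary hearts below it. The means were 75.8 ± 8.17 CPM in training and 51.2 ± 18.2 CPM in sedentary hearts (SD, n = 5 each), 1.48-fold, with a log2 fold change of 0.57 (SE 0.19) that was not called.

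Tef, at chr15:81686622-81711064 on the plus strand (ENSMUSG00000022389), was the most abundant member by CPM. Its level was 218, 191, 191, 207 and 227 CPM in training hearts 1 to 5, and 129.7, 147, 132, 196 and 186 CPM in sedentary hearts 1 to 5. Here too only sedentary hearts 4 and 5 came near the training hearts, and only heart 4 entered their range. The means were 207 ± 16.1 and 158 ± 30.7 CPM (SD, n = 5 each), and Tef was called higher at 1.31-fold, with a log2 fold change of 0.39 (SE 0.11). The call was lost without training heart 1, 4 or 5 (log2 fold change 0.37, 0.39 and 0.35) and without sedentary heart 2 or 3 (0.36 and 0.33).

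Hlf is the third PAR bZIP gene, at chr11:90227221-90281761 on the minus strand (ENSMUSG00000003949). Training hearts had 39.8, 25.9, 34.2, 30.9 and 35.9 CPM against 17.5, 21.0, 18.6, 34.1 and 26.9 CPM in sedentary hearts 1 to 5. Of the sedentary hearts, 4 and 5 lay inside the training range and the other 3 below it. Means of 33.3 ± 5.27 and 23.6 ± 6.90 CPM (SD, n = 5 each) gave 1.41-fold and a log2 fold change of 0.50 (SE 0.16), which was not called. Dbp was called without sedentary heart 4 (log2 fold change 0.71) or 5 (0.71), and Hlf without training heart 2 (0.58) or sedentary heart 4 (0.67). With the mouse number as a block, library totals alone or no filter on low counts, Dbp and Hlf were called as well.

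Nfil3, the repressor at D-boxes, lies at chr13:53121245-53137010 on the minus strand (ENSMUSG00000056749) and showed no such pattern. Its levels were 8.21, 8.91, 9.56, 8.25 and 8.66 CPM in training hearts and 11.1, 7.88, 9.79, 9.19 and 8.99 CPM in sedentary hearts. The training values all lay within the sedentary range. With 8.72 ± 0.553 and 9.39 ± 1.17 CPM (SD, n = 5 each), the log2 fold change was −0.11 (SE 0.09) and Nfil3 was not called.

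The activators and the repressor can be set against each other per transcript length. In TPM, a unit that corrects for transcript length and library size and was deposited by the authors, Dbp, Tef and Hlf together made 131 ± 11.8 TPM in training and 92.7 ± 19.1 TPM in sedentary hearts. The ratio of that sum to Nfil3 was 32.2, 24.7, 22.5, 28.0 and 30.7 in training hearts 1 to 5 and 12.3, 21.6, 14.6, 24.9 and 24.7 in sedentary hearts 1 to 5. The ranges overlapped, since sedentary hearts 4 and 5 exceeded training heart 3. The mean ratio was 27.6 ± 4.06 against 19.6 ± 5.82 (SD, n = 5 each). Tef made up 54.9% of the sum in training and 59.1% in sedentary hearts, Dbp 39.2% and 35.1%, and Hlf 5.93% and 5.84%.

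**Figure D1:**
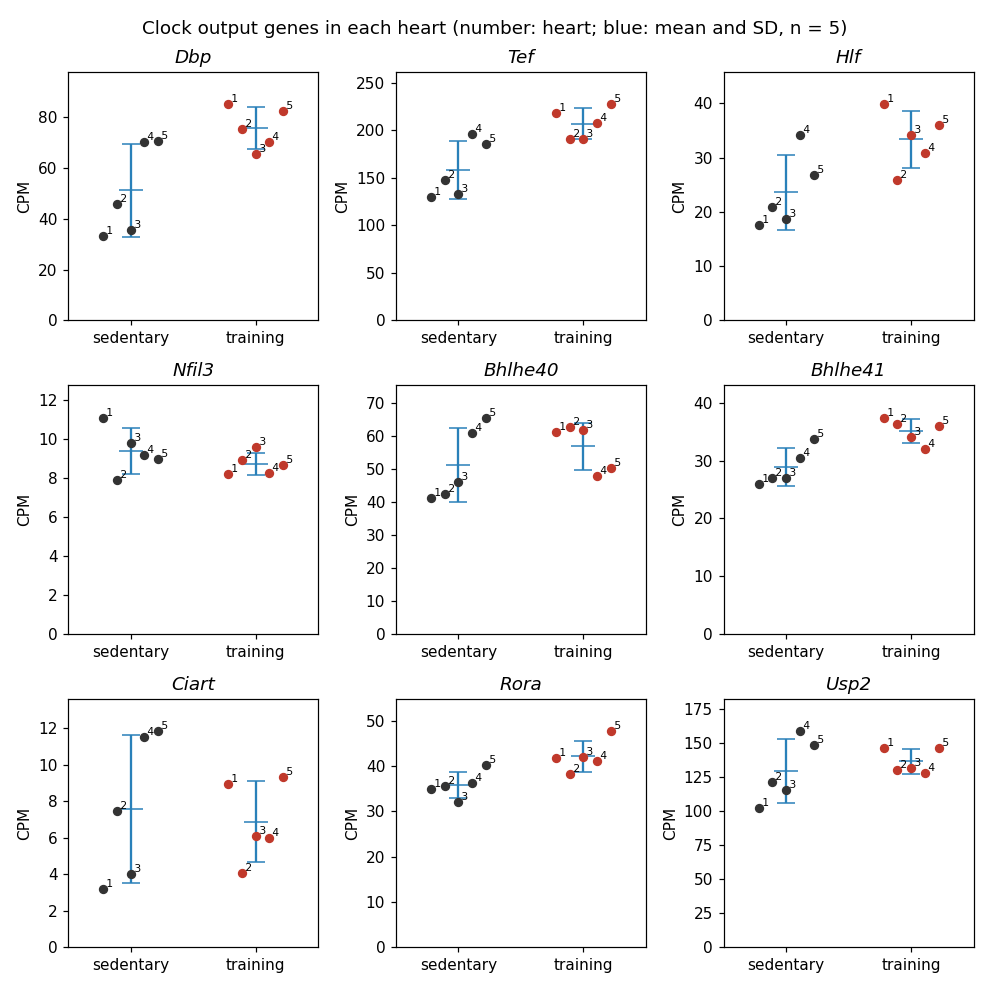
Level of the 9 genes in each heart in CPM, from 0, with a point per heart numbered as in the labels and the mean and SD of 5 hearts in blue. Sedentary hearts 4 and 5 were the 2 highest sedentary hearts in 8 of the 9 panels, Nfil3 being the exception.

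Among the E-box repressors, Bhlhe40 (chr6:108636626-108644502, plus strand, ENSMUSG00000030103) did not separate the groups. Training hearts 1 to 5 had 61.2, 62.7, 61.6, 47.9 and 50.4 CPM, and sedentary hearts 1 to 5 had 41.0, 42.5, 46.0, 60.9 and 65.4 CPM. Both groups split, with training hearts 4 and 5 low and sedentary hearts 4 and 5 high. The means were 56.8 ± 7.03 and 51.2 ± 11.2 CPM (SD, n = 5 each), with a log2 fold change of 0.15 (SE 0.13), not called.

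Bhlhe41, its paralogue at chr6:145803969-145811430 on the minus strand (ENSMUSG00000030256), was called higher. It measured 37.5, 36.4, 34.1, 32.1 and 36.0 CPM in training hearts against 25.9, 27.0, 27.1, 30.6 and 33.8 CPM in sedentary hearts 1 to 5. Only sedentary heart 5 entered the training range. Means of 35.2 ± 2.12 and 28.9 ± 3.26 CPM (SD, n = 5 each) gave 1.22-fold and a log2 fold change of 0.29 (SE 0.07). The call was lost without sedentary heart 2 (0.26) or 3 (0.27).

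Ciart, at chr3:95785815-95789991 on the minus strand (ENSMUSG00000038550), varied most between hearts of a group. Its levels were 8.95, 4.10, 6.13, 5.98 and 9.32 CPM in training hearts and 3.18, 7.45, 4.02, 11.5 and 11.8 CPM in sedentary hearts. The sedentary group held both the lowest and the highest values. The means, 6.89 ± 2.20 and 7.60 ± 4.05 CPM (SD, n = 5 each), gave a log2 fold change of −0.14 (SE 0.33), which was not called and had no stable sign: it was 0.0023 without training heart 2, 0.06 without sedentary heart 4 and 0.08 without sedentary heart 5. An antisense gene, C920021L13Rik, lies across all of Ciart. On the opposite strand, 8.03% of the reads at Ciart were counted, against at most 0.757% for the other 8 members.

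Rora, the receptor that activates through ROR elements, spans chr9:68561068-69295528 on the plus strand (ENSMUSG00000032238) and was called higher. Training hearts 1 to 5 had 41.9, 38.3, 42.0, 41.2 and 47.7 CPM and sedentary hearts 35, 35.6, 32.1, 36.4 and 40.2 CPM. The groups overlapped only where sedentary heart 5 exceeded training heart 2. Its means were 42.2 ± 3.42 and 35.9 ± 2.93 CPM (SD, n = 5 each), 1.18-fold, with a log2 fold change of 0.23 (SE 0.07). The call was lost without training heart 3, 4 or 5 (0.24, 0.24 and 0.19) and without sedentary heart 2, 3 or 4 (0.23, 0.20 and 0.24).

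Usp2, a deubiquitinase gene at chr9:43978264-44006924 on the plus strand (ENSMUSG00000032010), followed the PAR bZIP genes from heart to heart but not between groups. Training hearts had 146, 130.2, 132, 128 and 147 CPM, and sedentary hearts 1 to 5 had 102, 122, 116, 159 and 148 CPM. In the sedentary group, hearts 4 and 5 lay above all 5 training hearts and the other 3 below all of them. The means were 137 ± 9.03 and 129 ± 23.5 CPM (SD, n = 5 each), with a log2 fold change of 0.08 (SE 0.10), not called.

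Sedentary hearts 4 and 5 were the 2 highest of the 5 sedentary hearts in 8 of 9 members (88.9%). This was noticed after the values were seen. The same held for 2182 of the 15454 genes tested (14.1%), and the pair was lowest in 2272 (14.7%). Of the 16 core clock genes, the pair was highest in 7 (Per1, Per2, Per3, Cry2, Nr1d2, Csnk1d and Csnk1e) and it was lowest in Bmal1, Clock and Npas2. For example, Bmal1 measured 23.3, 19.7, 19.3, 8.82 and 13.1 CPM in sedentary hearts 1 to 5, and 6.74, 8.42, 8.67, 7.32 and 5.67 CPM in training hearts. Of the sedentary hearts, 4 and 5 were thus nearest to the training hearts in Bmal1, too.

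To ask whether hearts of a group that were high in Dbp were also high in the other genes, the group mean was subtracted from log2 CPM in each heart, which removes the difference by which the members were chosen. The deviations of Dbp were then correlated with those of the other 8 members, Bmal1 and Nr1d1 over 10 hearts, with a two-sided exact permutation test within groups and adjustment over these 10 relations. The deviations of Dbp ran from −0.198 to 0.174 in training hearts and from −0.542 to 0.537 in sedentary hearts. Pearson's r over 10 hearts therefore rests mostly on the sedentary hearts, and r within each group alone was not computed. Of the 10, 6 passed an adjusted p of 0.05. Tef, Usp2 and Ciart lay closest to Dbp. For Tef, Pearson's r was 0.963 (permutation p = 0.0024, adjusted p = 0.011) and Spearman's rho 0.927 (adjusted permutation p = 0.025). For Usp2, r was 0.960 (permutation p = 0.0012, adjusted p = 0.011) and rho 0.903 (adjusted permutation p = 0.025). Ciart, whose group means did not separate, had an r of 0.901 (permutation p = 0.0099, adjusted p = 0.020) and a rho of 0.903 (adjusted permutation p = 0.025).

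Bhlhe41 and Hlf followed Dbp with r of 0.871 (permutation p = 0.0037, adjusted p = 0.011) and 0.843 (permutation p = 0.012, adjusted p = 0.020), and rho of 0.879 and 0.794 (adjusted permutation p = 0.025 and 0.045). Bmal1 ran opposite to Dbp, at r = −0.876 (permutation p = 0.0043, adjusted p = 0.011) and rho = −0.842 (adjusted permutation p = 0.032). The relations with Bhlhe40 (r = 0.751, adjusted permutation p = 0.10), Rora (r = 0.617, adjusted permutation p = 0.074), Nr1d1 (r = 0.653, adjusted permutation p = 0.23) and Nfil3 (r = −0.511, adjusted permutation p = 0.30) did not pass, with rho of 0.685, 0.612, 0.624 and −0.576 (adjusted permutation p = 0.14, 0.12, 0.16 and 0.15).

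In the deviations of Dbp from the group means, sedentary hearts 4 and 5 were the 2 hearts farthest from the median of the 10 deviations. Without them, 8 hearts were left, and r was 0.830 for Tef, 0.847 for Usp2, 0.793 for Ciart, 0.622 for Bhlhe41, 0.540 for Hlf and −0.642 for Bmal1. The adjusted permutation p values were then 0.13 for Tef, Usp2 and Ciart, 0.16 for Bhlhe41 and Bmal1, and 0.22 for Hlf, so that none of these relations passed without both hearts. A test on 8 hearts is also weaker, so dependence on those 2 hearts and the smaller number of hearts cannot be told apart. For Nfil3 r became −0.838 and for Bhlhe40 −0.018 (adjusted permutation p = 0.13 and 0.96), for Rora 0.382 and for Nr1d1 0.613 (0.40 and 0.31). Leaving out sedentary heart 4 or 5 alone left the same 6 of the 10 relations past the adjusted p of 0.05. Leaving out sedentary heart 1 or 3 alone left 3 of the 10, those with Tef, Usp2 and Ciart. The r of the relations that no longer passed was 0.794 and 0.819 for Hlf, 0.835 and 0.876 for Bhlhe41, and −0.830 and −0.884 for Bmal1 without sedentary heart 1 and 3, respectively. Leaving out sedentary heart 2 left 5, with Hlf (r = 0.843) and Ciart (0.916) no longer past it and Nfil3 (−0.772) past it.

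**Figure D2:**
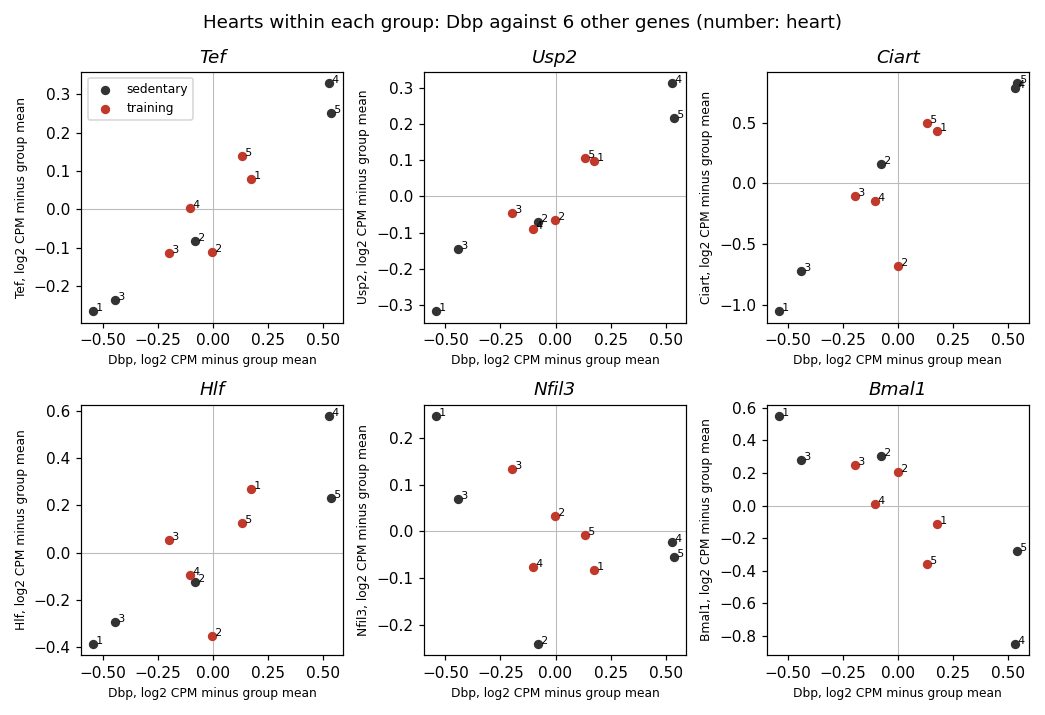
Deviation of log2 CPM from the group mean for Dbp (horizontal) against 6 other genes (vertical), a numbered point per heart and 10 hearts per panel. Tef (r = 0.963), Usp2 (0.960), Ciart (0.901) and Hlf (0.843) rise with Dbp, Bmal1 (−0.876) falls, and sedentary hearts 4 and 5 form the right end of each panel.

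Over all pairs of members other than Nfil3, the correlation of the deviations was above 0 in 28 of 28 pairs, from 0.243 (Bhlhe40 with Rora) to 0.963 (Dbp with Tef), with a median of 0.763. Nfil3 was below 0 with all of the other 8 members, from −0.605 with Ciart to −0.061 with Bhlhe40. Bmal1 was below 0 with 8 of the 9 members, down to −0.949 with Tef, and above 0 with Nfil3 alone (0.340). These pairs share the same 10 libraries and are given as a description. Both groups were pooled, so the values do not show that a relation was present in each group.

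**Figure D3:**
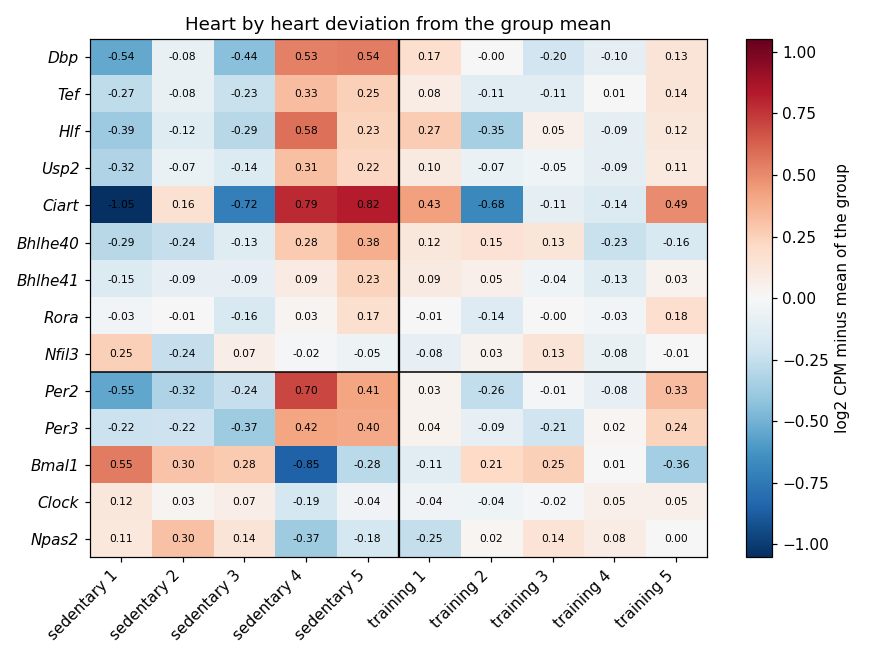
Deviation of each heart from its group mean in log2 CPM (color scale and printed values) for the 9 members and 5 core clock genes, sedentary hearts left and training hearts right. In sedentary hearts 4 and 5 all members but Nfil3 were above their group mean and Bmal1, Clock and Npas2 below it.

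Among the 10240 genes whose mean reached 5 CPM, the deviations most like those of Dbp over the 10 hearts belonged to Trp53bp1 (r = 0.967), Tef (0.963), Usp2 (0.960), Gm43050 (0.946) and Asb15 (0.943). Those most opposed belonged to Igsf9b (−0.984), Tm4sf1 (−0.956), Prcp (−0.942), Inhbb (−0.933) and Leprot (−0.932). Thus 2 of the 5 genes nearest to Dbp were members. Of the other members, Ciart stood at rank 22, Bhlhe41 45, Hlf 78, Bhlhe40 288 and Rora 838 from the top, and Nfil3 at rank 1173 from the bottom. Of the core clock genes, Per3 stood at rank 12, Per2 38, Nr1d2 84, Cry2 88, Per1 319 and Nr1d1 660 from the top. From the bottom, Bmal1 stood at rank 28, Clock 129 and Cry1 2204, the last with r = −0.350. The middle 90% of these genes lay between −0.653 and 0.684.

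Per transcript length the members ranked as follows. In training hearts, Tef (72.0 ± 7.39 TPM) was above Usp2 (61.0 ± 1.29), Dbp (51.5 ± 5.41), Bhlhe40 (23.2 ± 3.16), Bhlhe41 (11.8 ± 1.39) and Hlf (7.80 ± 1.11), each range clear of the next. Ciart (5.90 ± 1.90 TPM) overlapped Hlf above it and Rora (5.00 ± 0.452) below it, and Rora overlapped Nfil3 (4.80 ± 0.461). In sedentary hearts Usp2 (57.1 ± 9.51 TPM) and Tef (54.2 ± 7.58) overlapped at the top, followed by Dbp (33.1 ± 10.3), Bhlhe40 (19.9 ± 3.54) and Bhlhe41 (9.53 ± 0.728). Dbp was above Bhlhe40 in 5 of 5 sedentary hearts although their ranges overlapped. The lowest 4 were Ciart (6.31 ± 2.94 TPM), Hlf (5.44 ± 1.41), Nfil3 (4.89 ± 0.807) and Rora (4.23 ± 0.266).

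**Figure D4:**
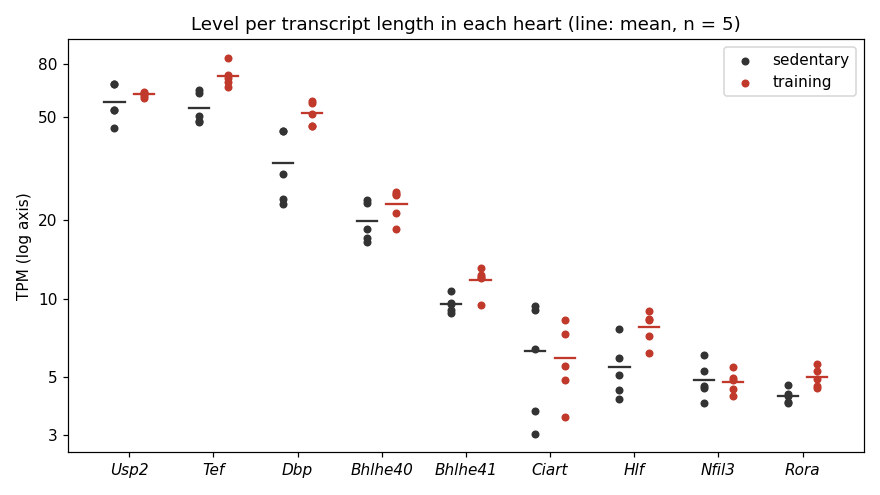
TPM of the 9 members in each heart (log axis), a point per heart and a line at the mean of 5 hearts. Tef, Usp2 and Dbp lead in both groups, and Nfil3 and Rora are the lowest pair by mean.

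The gene length that RSEM weights by the transcripts it assigns reads to is a measure that did not enter the choice of members. It was constant for Nfil3 and longer on average in training for the other 8 of 8. Over all genes 57.5% were longer, with a median log2 ratio of 0.0040. The members share the same libraries, so the 8 are not independent of each other. For Bhlhe41, training heart 1 had 4028 bases and the other training hearts at most 3272. Tef alone of the 9 did not overlap between the groups, at 3122 ± 62.8 bases in training (3036 to 3206) and 2958 ± 45.1 bases in sedentary hearts (2912 to 3027; SD, n = 5 each). Of all 12985 genes whose length varied, 325 (2.5%) did not overlap.

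The core loop showed changes in both directions. Of its 16 genes, 16 were tested, 4 were called higher and 3 lower, with a median log2 fold change of 0.04. Per3, a member of the Period repressor family, rose (log2 fold change 0.80, SE 0.15, edgeR FDR = 0.016), as did Nr1d2 (0.43, SE 0.09, FDR = 0.023), Cry2 (0.33, SE 0.09, FDR = 0.052) and Cry1 (0.23, SE 0.07, FDR = 0.088). Bmal1 fell (−1.19, SE 0.21, edgeR FDR = 0.015), with its partners Clock (−0.30, SE 0.05, FDR = 0.016) and Npas2 (−0.47, SE 0.13, FDR = 0.063). Per1 (−0.17, FDR = 0.76), Per2 (0.38, FDR = 0.31) and Nr1d1 (−0.11, FDR = 0.59) did not pass in edgeR. Over 19 alternatives, Bmal1 and Per3 were called in 19, Clock and Nr1d2 in 18, Cry2 in 15, Npas2 in 12 and Cry1 in 8. Without training heart 4 or sedentary heart 2, 4 of the 16 were called. Npas2 was lost without training heart 1, 4 or 5 or sedentary heart 2 or 3 (log2 fold change −0.55 to −0.39 over the 19 alternatives), Cry2 without training heart 4 or sedentary heart 2 or 3 (0.28 to 0.40), and Cry1 without any heart but training heart 1 and sedentary hearts 1 and 3 (0.16 to 0.28). Among the core clock genes called, the repressors Per3, Nr1d2, Cry2 and Cry1 moved in the direction of Tef, Bhlhe41 and Rora, and Bmal1, Clock and Npas2 against it. The repressors Per1, Per2 and Nr1d1 were not called, with Per2 above 0 and Per1 and Nr1d1 below it.

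**Figure D5:**
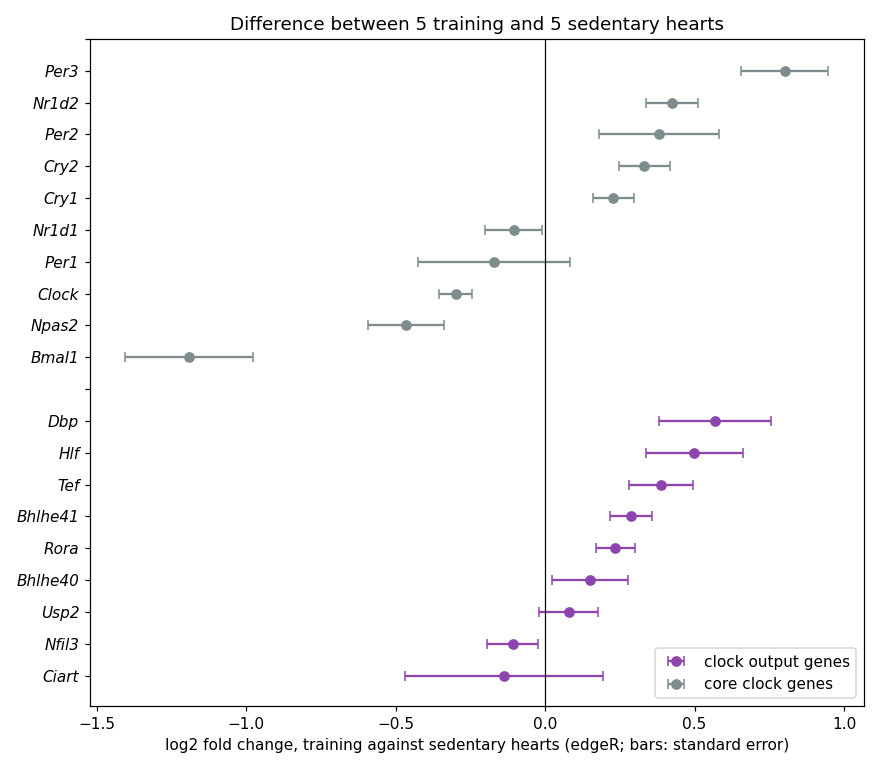
Log2 fold change in edgeR, training over sedentary, with its standard error for the 9 members (purple) and 10 core clock genes (grey), 5 hearts per group. The members run from −0.14 (Ciart) to 0.57 (Dbp) and these core clock genes from −1.19 (Bmal1) to 0.80 (Per3).

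Genes known as targets of the PAR bZIP factors were read next. Of 9 such genes 5 were tested, 0 were called higher by edgeR or DESeq2 or at an unadjusted p below 0.05, and edgeR called 1 lower (DESeq2 2, with 2 lower at an unadjusted p below 0.05), the nuclear receptor Ppara (log2 fold change −0.27, edgeR FDR = 0.061), with a median of −0.15. The others, Nr1i3, Cyp7a1, Cyp2a5 and Tshb, did not pass the filter on low counts in these hearts. Per2 and Per3, which held the D-box in the window searched, were not in this list. Per3 was called higher (0.80, edgeR FDR = 0.016) and Per2 was not called (0.38, FDR = 0.31). Of 13 genes known to be controlled by the clock in the heart, 2 were called higher, Tspan4 (0.39, FDR = 0.0070) and Nampt (0.21, FDR = 0.062). Cdkn1a (−0.79, edgeR FDR = 0.0050) and the kinase subunit Pik3r1 (−0.42, FDR = 0.015) were called lower, and the median of the list was −0.10. Over 19 alternatives Tspan4, Cdkn1a and Pik3r1 were called in 19, while Ppara (−0.31 to −0.21) was lost without training heart 3 or 4 or sedentary heart 4 or 5. Nampt (0.18 to 0.26) was lost without training heart 4 or 5 or sedentary heart 2 or 3.

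Hormone and activity signals that reach the clock were also read. Of 12 genes that glucocorticoids induce, 12 of 12 were below 0 on the log2 fold scale (median −0.42), and 5 were called lower in edgeR: Lcn2 (−0.97, FDR = 0.019), Cdkn1a (−0.79, FDR = 0.0050), Errfi1 (−0.66, FDR = 0.072), Fkbp5 (−0.50, FDR = 0.089) and Ddit4 (−0.90, FDR = 0.093). The summed level of all 12 genes was 719 to 1006 CPM in training and 934 to 1339 CPM in sedentary hearts. Of the 5, Lcn2 and Cdkn1a were called in 19 of 19 alternatives, while leaving out 1 heart ended the call of Errfi1 in 7, of Ddit4 in 8 and of Fkbp5 in 9 of 10 cases, over log2 fold changes of −0.79 to −0.45, −1.10 to −0.21 and −0.76 to −0.39. Errfi1 was kept without training heart 4 or 5 or sedentary heart 1, Ddit4 without training heart 5 or sedentary heart 1, and Fkbp5 without training heart 3. Of 10 immediate early genes 0 were called by edgeR or DESeq2, 2 had an unadjusted p below 0.05 in edgeR, and the median was −0.037. Whether either signal has a part in the levels of the 9 members was not tested.

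Markers of chamber and cell type were read beside the members. All 12 atrial markers were above 0 in log2 fold change, with a median of 0.40, and 3 were called higher: Sln (0.75, edgeR FDR = 0.032), Dkk3 (0.73, FDR = 0.028) and Kcnj3 (0.36, FDR = 0.038). The summed level of all 12 atrial markers was 5404 to 8047 CPM in training and 3014 to 7201 CPM in sedentary hearts. All 8 markers of cardiomyocytes were present at 57010 to 61210 CPM in sum in training and 60050 to 68880 CPM in sedentary hearts, with 8 of 8 log2 fold changes below 0 and 1 called (Actc1, −0.38, edgeR FDR = 0.022). Adipocyte markers made 21.1 to 176 CPM and 18.3 to 142 CPM, with 7 of 7 above 0 and 0 called by edgeR or DESeq2 or at an unadjusted p below 0.05. In bulk RNA, more cells of a type and more RNA per cell cannot be told apart.

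With the atrial marker score of each heart as a covariate, 62 genes and 0 of the 9 members were called. The log2 fold changes of the members there were 0.88 for Dbp, 0.52 for Tef, 0.55 for Hlf, 0.38 for Bhlhe41 and 0.30 for Rora. They were 0.22 for Bhlhe40, 0.21 for Usp2, 0.43 for Ciart and −0.30 for Nfil3. All but that of Ciart kept their sign. The score itself differed between the groups, at 0.046 to 0.56 in training and −0.67 to 0.27 in sedentary hearts. This fit therefore separates score and group only in part. Whether atrial content has a part in the levels of the members was not tested. Sedentary hearts 4 and 5 had 5153 and 3070 CPM of atrial markers, within the range of the other 3 sedentary hearts (3014 to 7201 CPM). Their adipocyte markers (48.7 and 46.4 CPM) also lay within that group's range, and their glucocorticoid-induced genes made 1339 and 1214 CPM, against 1220 CPM in sedentary heart 2. They were above the other 3 in cardiomyocyte markers (68880 and 66220 CPM) and immediate early genes (261 and 222 CPM). Their TMM factors (0.955 and 0.963) were the lowest of all libraries. Whether these differences have a part in the levels of the members was not tested.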

How the data were processed

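Directional poly-A libraries of 10 whole hearts, 1 per mouse, were run as 1 pool of single-end reads. For each heart the authors deposited gene counts of uniquely mapped reads from STAR 2.7.10a, not normalized, and expected counts, TPM and transcript-weighted gene lengths from RSEM 1.3.3, whose strand setting is not given in the sources used here. The reverse-strand counts were used, which held a minimum of 94.9% of counts on either strand. Lines that name no gene were left out: multimapping reads (17.9% to 19.2% of reads), reads on no gene (4.15% to 4.89%), ambiguous reads (0.94% to 0.998%) and unmapped reads (0.837% to 1.05%). Of 56748 identifiers, 56017 matched GENCODE M39 on GRCm39, which gave symbols, positions and promoter sequence. Labels gave each heart its group.

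Tests used edgeR 4.0.16 under R 4.3.3, with the filterByExpr filter, TMM scaling, the quasi-likelihood test and a prior count of 2 for logarithms. Alternatives were DESeq2 1.42.0, other scales and filters, RSEM expected counts (rounded), both strands, a block on mouse number, an atrial score (mean of centred log2 CPM) as covariate, an FDR of 0.05 and leaving out each heart. Steps were tested on simulated data. Pairs of libraries of a group differed by a chi-square per degree of freedom of 6.02 to 27.8, beyond counting noise, so errors are between hearts. Members and gene lists were written by hand with earlier results of these data known. All members were named, with other list genes past the FDR, 10 core clock genes and the 5 genes nearest to and farthest from Dbp. Tsc22d3, Dusp1, Cdkn1a and Per1 are each in more than 1 list. Single results for 2 genes of the lists are not reported here.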

Additional observations from a re-analysis of the deposited data

How the results depend on the processing

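The number of members called, 3, became 5 with library totals alone, with no filter and with the replicate block on mouse number (1137 genes called in all), 0 with the atrial score as covariate and 1 at an FDR below 0.05, and ran from 0 to 4 without 1 heart: 0 without sedentary heart 2 or 3 and 1 without training heart 4 or 5. Same-numbered hearts did not deviate together (r of −0.097 to 0.159 over genes), so the numbers were not taken as pairs. Core clock calls, 7, became 2 with the atrial score and 4 at an FDR below 0.05, and ran from 4 to 7 without 1 heart (4 without training heart 4 or sedentary heart 2). All genes called, 1084, became 62 with the atrial score and 505 at an FDR below 0.05, and ran from 512 to 1490 without 1 heart, with 540 without training heart 3, 512 without training heart 4 or sedentary heart 3, 611 without sedentary heart 2 and 671 without sedentary heart 4. DESeq2 called 1473. The Dbp relations that passed, 6, ran from 3 to 6 without 1 heart. The log2 fold change of Ciart turned positive with the atrial score (0.43) and without training heart 2 (0.0023), sedentary heart 4 (0.06) or sedentary heart 5 (0.081), and ran from −0.34 to 0.081 without 1 heart. The cause of these shifts was not tested. The other 8 members kept their sign in all 19 alternatives: Dbp ran from 0.45 to 0.88, Tef from 0.32 to 0.52, Hlf from 0.41 to 0.67, Bhlhe40 from 0.08 to 0.26, Bhlhe41 from 0.25 to 0.38, Rora from 0.19 to 0.30, Usp2 from 0.0052 to 0.21 and Nfil3 from −0.30 to −0.041. The lowest count of any member was 128 (Ciart), and the spread between hearts of a group was beyond counting noise.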
